A study of Mus musculus with 34 samples.

Results

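Chromatin regions that were open in every cell population of the study numbered 1733 among 61892 summits of uninduced mouse embryonic fibroblasts (MEF), 2.8% of that list. A summit is the single base of highest signal in an ATAC-seq peak, where a transposase has cut accessible DNA. The members were chosen by list membership: a summit of uninduced MEF on chromosomes 1 to 19 or X was kept when each of the other 18 summit lists had a summit within 250 bp. Before that, 24 bins of 10 kb were set aside because all 15 pooled lists held a summit there with a score of 200 or more, which removed 136 summits of the uninduced MEF list, 38 of which would otherwise have been members. The score is the one deposited with each summit, −log10 of a q value. Joining members that lay within 250 bp of each other left 1710 separate regions. Presence in every list, and the high scores that come with it, are therefore how the members were selected and not a result.

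The study followed chromatin opening while doxycycline switched on Etv2, an ETS protein that directs cells towards blood and endothelium, in MEF and in embryoid bodies (EB), clumps of embryonic stem cells that have begun to differentiate. It has 34 samples in 17 groups of 2. The MEF, called iHA-Etv2 MEFs in the protocol, were profiled without doxycycline at day 0, after 1, 2 and 7 days of doxycycline, and at day 7 also as cells sorted for Flk1, the surface receptor encoded by Kdr. A second MEF arm carried a knockdown of Brg1, the product of Smarca4 and an ATPase that drives SWI/SNF remodelling of nucleosomes. It was profiled at day 0 and then on days 1, 2 and 7 in the presence and in the absence of doxycycline. The EB groups, labelled 12 h in their time field and D25 in their titles, were left uninduced, induced, or induced and sorted for Flk1; which of the labels gives their time is not given in the sources used here. A further pair of EB groups with floxed Brg1 was taken on day 4 of a culture that received doxycycline, and 1 of these also received 4-hydroxytamoxifen (4OHT). The labels of both replicates name 1 summit list in 15 groups, so these pooled lists carry no replicate error, while each of the 4 floxed samples has its own list. The scores of the knockdown and floxed lists are written with at most 6 significant digits, whereas 27.6% to 55.9% of the scores in the other lists have more, so knockdown or floxed alleles and the way the lists were made cannot be told apart.

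Many mammalian promoters are active only in particular lineages, but a large class of CpG-rich promoters, which includes those of most housekeeping genes, stays accessible in nearly every cell type. Such promoters usually lie in CpG islands, often lack a TATA box and are often bound by broadly expressed factors such as NF-Y, NRF1, ETS proteins, SP1 and ZNF143. Enhancers, in contrast, are mostly open in particular cell types.

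The promoters of 6 genes are printed to show what this kind of sequence looks like. They come from the RefSeq promoter table for GRCm38.p6, the mm10 assembly, and run from 250 bases before to 50 bases after the annotated start, 5′ to 3′ on the strand of the gene. Hjurp, which encodes a chaperone of the centromeric histone CENP-A, had the best-ranked gene-start member of all (chr1:88277530-88277829, minus strand). Etfdh, which encodes an electron-transfer enzyme of mitochondria, was among the 10 best ranked and shares its member with a gene on the other strand (chr3:79628718-79629017, minus strand). Gtf2f1 encodes a subunit of the general transcription factor TFIIF (chr17:57011239-57011538, minus strand). Hspa5 encodes BiP, the main chaperone of the endoplasmic reticulum (chr2:34771840-34772139, plus strand). Cycs, chosen like Gtf2f1 for its motif matches after these were seen, encodes cytochrome c (chr6:50566520-50566819, minus strand). Prrx1, a homeobox gene of mesenchyme whose start had a summit in uninduced MEF shared with 5 other lists and no member, is given as a contrast (chr1:163313601-163313900, minus strand). Capitals mark exact matches, on either strand, to the motifs of 8 broadly expressed factors or elements: NF-Y, ZNF143, ETS, NRF1, SP/KLF, YY1, the cAMP response element and the E-box.
Hjurp: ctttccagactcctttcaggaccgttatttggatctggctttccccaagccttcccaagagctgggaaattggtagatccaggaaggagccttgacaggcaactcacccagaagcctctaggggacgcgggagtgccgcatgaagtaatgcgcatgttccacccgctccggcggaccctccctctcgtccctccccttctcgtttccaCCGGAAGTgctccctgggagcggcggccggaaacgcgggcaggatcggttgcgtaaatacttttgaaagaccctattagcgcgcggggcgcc
Etfdh: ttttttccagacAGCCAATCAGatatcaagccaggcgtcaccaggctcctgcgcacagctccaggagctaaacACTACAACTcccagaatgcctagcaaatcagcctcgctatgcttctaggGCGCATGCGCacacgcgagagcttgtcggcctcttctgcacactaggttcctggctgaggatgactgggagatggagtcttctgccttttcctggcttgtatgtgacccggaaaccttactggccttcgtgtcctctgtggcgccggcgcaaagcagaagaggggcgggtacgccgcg
Gtf2f1: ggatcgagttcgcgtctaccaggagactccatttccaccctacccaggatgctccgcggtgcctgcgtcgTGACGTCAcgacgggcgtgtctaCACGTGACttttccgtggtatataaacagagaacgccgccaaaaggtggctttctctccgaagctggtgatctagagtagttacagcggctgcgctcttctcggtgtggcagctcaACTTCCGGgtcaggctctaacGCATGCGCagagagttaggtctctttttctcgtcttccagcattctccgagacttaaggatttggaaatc
Hspa5: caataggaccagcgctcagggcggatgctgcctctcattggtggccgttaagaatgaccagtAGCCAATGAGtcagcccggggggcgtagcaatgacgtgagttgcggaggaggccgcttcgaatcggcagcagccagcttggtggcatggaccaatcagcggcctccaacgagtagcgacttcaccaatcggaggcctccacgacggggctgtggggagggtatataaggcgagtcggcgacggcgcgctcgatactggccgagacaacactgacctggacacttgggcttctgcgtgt
Cycs: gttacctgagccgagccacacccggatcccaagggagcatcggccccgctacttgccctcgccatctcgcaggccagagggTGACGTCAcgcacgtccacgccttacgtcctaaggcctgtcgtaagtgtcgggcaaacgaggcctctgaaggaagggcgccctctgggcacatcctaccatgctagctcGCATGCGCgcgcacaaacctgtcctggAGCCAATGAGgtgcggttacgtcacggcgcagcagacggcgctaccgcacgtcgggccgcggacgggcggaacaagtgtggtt
Prrx1: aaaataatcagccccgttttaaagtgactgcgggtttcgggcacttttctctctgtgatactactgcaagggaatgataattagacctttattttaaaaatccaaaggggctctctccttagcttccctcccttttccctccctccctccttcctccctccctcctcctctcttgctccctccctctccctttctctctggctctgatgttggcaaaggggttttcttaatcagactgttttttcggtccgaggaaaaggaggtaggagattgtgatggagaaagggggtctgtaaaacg
In Hjurp the capitals are an ETS match, in Hspa5 an NF-Y match, and in Etfdh matches to NF-Y, ZNF143 and NRF1, the last with overlapping matches on both strands. Gtf2f1 holds matches to the cAMP response element, the E-box, ETS and NRF1, and Cycs holds matches to the cAMP response element, NRF1 and NF-Y. Matches to the other motifs searched were left in lower case: Hspa5 also holds an AP-1 match that overlaps the end of its NF-Y match, and Gtf2f1 a match to a looser form of the CTCF motif. The Prrx1 promoter has no match to any motif searched, a GC content of 47.7% and 6 CpG dinucleotides, against 24 in Gtf2f1 and 32 in Cycs. Not every promoter without a member is like it: that of Smarca4 holds NRF1 matches and 33 CpG dinucleotides.

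Most members lay at genes. Of the 1733 members, 1321 (76.2%, exact 95% interval 74.1 to 78.2) were within 1 kb of an annotated start in the promoter table and a further 242 (14%) within 1 kb of another gene end. This latter class includes starts that the promoter table does not hold, among them every start on chromosome 18. Together 1563 members (90.2%, interval 88.7 to 91.6) were at a gene start or end, against 30.9% (30.5 to 31.3) of the 60159 other uninduced MEF summits. Only 87 members (5.02%) lay inside a gene away from its ends and 83 (4.79%) between genes. In the rest of the uninduced MEF list these classes held 39.3% and 29.8%. Intervals given for shares cover counting error only.

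**Figure D1:**
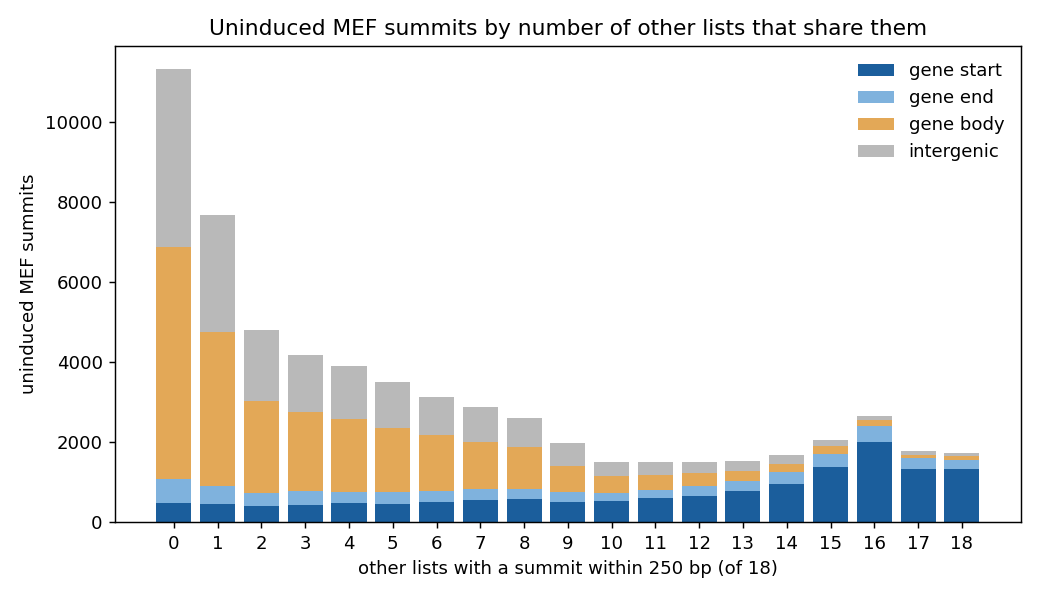
Number of uninduced MEF summits (vertical axis) by the number of the other 18 lists with a summit within 250 bp (horizontal axis), divided by position relative to genes. The distribution has a high bar of 11330 summits found in no other list, a low stretch near 1500 at 10 to 13 lists and a second rise to 2662 at 16 lists, and the blue share for gene starts and ends grows from left to right.

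The position of a summit followed its degree of sharing. Of the 11330 summits that no other list shared, 9.49% were at a gene start or end. The share was 48.0% among summits shared with 10 lists, 83.1% with 15 and 90.3% with 16, and it was 90.7% and 90.2% at 17 and 18 lists. In this respect members were close to the summits that 1 or 2 lists lacked. Just inside the matching distance, 369 members had their farthest partner at 201 to 250 bp, and 88.6% of them were at a gene start or end with a median score of 63.3. Just outside it, 299 summits had their farthest partner at 251 to 300 bp, with 79.6% at gene starts or ends and a median score of 55.0. For the bins set aside, the lowest of the 15 pooled lists' top scores was 214 in the weakest removed bin and 188 in the strongest bin kept.

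At starts, members were centred just upstream. The median member lay 47 bp before the annotated start (quartiles −137 and 60 bp, with negative values upstream), and 48.5% of the 1321 were within 100 bp of it. The 13051 other uninduced MEF summits at starts had a median of 23 bp after it (quartiles −107 and 167), with 38.4% within 100 bp.

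The share of members at starts shared by divergent gene pairs was higher than that of other start summits. Of 1284 members at protein-coding starts, 179 (13.9%, interval 12.1 to 16) lay at 2 starts facing away from each other, against 753 of 11666 other summits (6.45%, 6.02 to 6.92). Among 2694 start summits that only lacked at least 1 of the day-7 knockdown lists, it was 9.87% (8.77 to 11.1). Examples were Tcp1 with Mrpl18, a chaperonin subunit and a mitochondrial ribosomal protein, Gabpa with Atp5j, an ETS factor and a subunit of ATP synthase, Hspe1 with Hspd1, the 2 components of the mitochondrial chaperonin, and Ndufb5 with Mrpl47, a subunit of respiratory complex I and a mitochondrial ribosomal protein. In each case 1 summit served both genes, so these genes are not separate observations.

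The length of the list of members was set by 2 of the 19 lists. To measure this, each list was left out in turn and the summits present in every other list were looked up in it, so the list examined had no part in choosing them. In 16 lists the share found was 97.3% to 99.9% (median 99.25%). In the Brg1 knockdown list of day 7 with doxycycline it was 75.6% (interval 73.8 to 77.4), and in that of day 7 without doxycycline 65.9% (64.0 to 67.7). These are also the shortest lists, with 13644 and 11188 summits on the chromosomes used. The next shortest, the first replicate of floxed EB with 4OHT (17946) and unsorted MEF at day 7 of doxycycline (18418), held 97.5% and 97.6%. Both conditions of the arm at day 7 were low, with and without doxycycline, while the 5 knockdown lists of days 0, 1 and 2 held 99.2% or 99.3%. Where presence in the day-7 knockdown lists was not required, unsorted MEF at day 7 of doxycycline held 81.6% of the summits of all others, and each of the other 15 lists 96.9% or more. The part of list length in this was not tested.

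**Figure D2:**
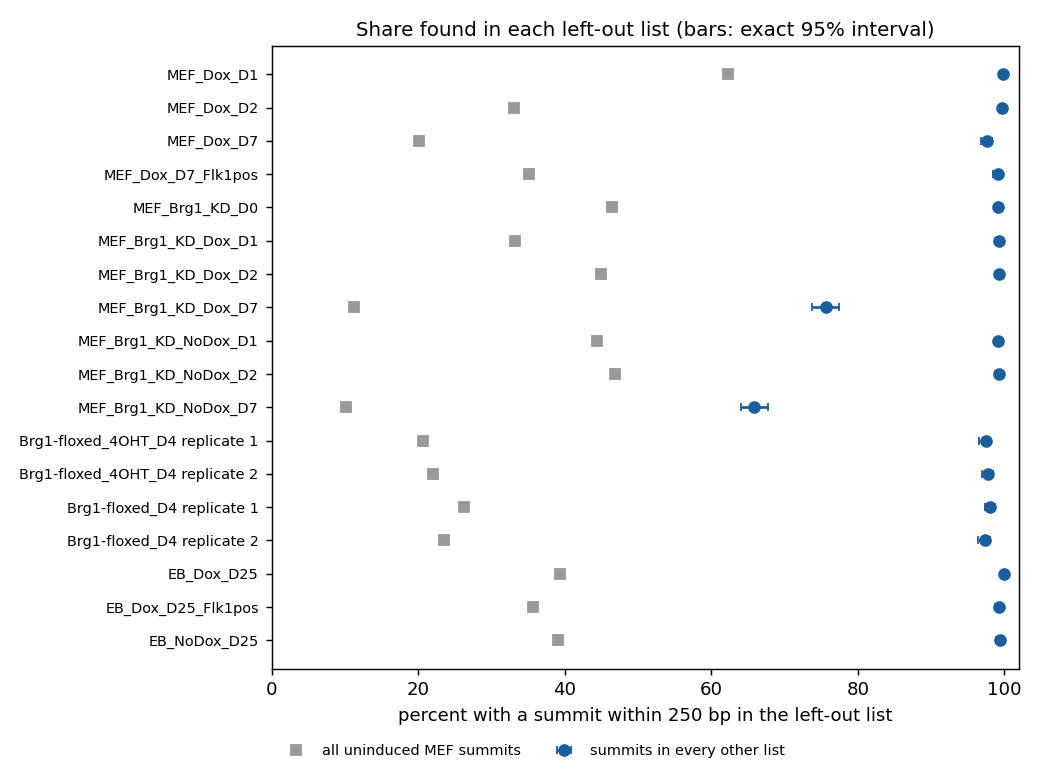
For each list left out in turn (names as in the labels), the percent of summits present in every other list that the left-out list also held (circles, with exact 95% intervals), and the percent of all uninduced MEF summits it held (squares). The circles stand at 97.3% or more in 16 lists and at 75.6% and 65.9% in the day-7 knockdown lists.

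These shares stand far above those of uninduced MEF summits at large, which give the background. In MEF without knockdown, 62.3% of the 61892 summits had a partner at day 1 of doxycycline, 33.1% at day 2, 20.1% at day 7 and 35.2% in the sorted cells of day 7. In the knockdown arm it was 46.4% at day 0, 33.2%, 45.0% and 11.3% on days 1, 2 and 7 with doxycycline, and 44.4%, 46.9% and 10.1% on the same days without it. In EB it was 39.1% without doxycycline, 39.4% with it and 35.7% in the sorted cells. In floxed EB it was 26.3% and 23.6% without 4OHT and 20.7% and 22.0% with it. The background was lowest in the same 2 lists in which the summits of every other list were most often absent.

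Dropping the requirement on the day-7 knockdown lists left 5248 summits, of which 50.1% were in the list with doxycycline, 43.7% in the one without and 33.0% in both. Of the 1779 summits that lacked exactly 1 list, 898 lacked only the day-7 knockdown list without doxycycline and 558 only the one with it, together 81.8%. Each of the other lists accounted for 1 to 49. In the list that lacked it, the nearest summit was usually far away: the median distance was 47322 bp, and only 377 of the 1779 (21.2%) had a summit within 500 bp. Near misses by a small shift of position were thus a minority. Examples with high ranks elsewhere were the start of Sarnp, an RNA-binding protein gene, absent from the day-7 knockdown list with doxycycline, and the starts of Tedc1 and of Nr1d2, a nuclear receptor of the circadian clock, absent from the one without.

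Members also had the higher scores in uninduced MEF, which the rule favours. The median score was 77.1 among members, 53.4 among summits lacking 1 list and 10.4 among all others. With the 5248 summits cut into 3 equal parts by that score, from low to high, 10.6%, 26.1% and 62.4% were in both day-7 knockdown lists. Position went the other way among shared summits only. Of summits in every other list, the day-7 knockdown list with doxycycline held 74.5% of those at gene starts or ends and 88.5% of the distal ones, and the list without doxycycline 64.4% and 82.9%. The distal shares rest on 192 and 205 summits. Of all uninduced MEF summits, the list with doxycycline held 19.1% at gene starts or ends and 7.49% of the distal ones. The list without it held 16.8% and 6.85%.

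The rank of members was taken within each list. A within-list percentile of 100 is the highest score of that list, and since scores depend on depth only ranks within 1 list were used. A rank also depends on list length, because a short list holds fewer weak summits below a given region, so ranks in lists of different length show no change between them. The median member stood at the 96.9th percentile in uninduced MEF, 95.9, 90.1 and 81.5 on days 1, 2 and 7 of doxycycline, and 92.4 in the sorted cells. It stood at 94.0 to 95.3 in the 3 EB lists, 86.9 and 88.1 in floxed EB with 4OHT, and 93.8 and 92.0 in those without. In the knockdown arm it stood at 92.4 to 96.1 through day 2 and at 53.8 and 50.7 on day 7 with and without doxycycline. For 1493 of the 1733 members (86.2%) the lowest rank of all 19 lists was in a day-7 knockdown list. In those lists members at starts had median percentiles of 48.2 and 47.9, and distal members 77.4 and 75.3. The cells are bulk populations, so more open copies per cell and more cells with the site open cannot be told apart.

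The effect of 4OHT in the floxed EB was examined on 2264 summits chosen from the 15 pooled lists alone, without the floxed lists. With 4OHT, 84.5% and 86.0% of them were present in the 2 replicates, and without it 86.2% and 84.7%. The groups overlapped: the means were 85.3% ± 1.03 (SD, n = 2) and 85.5% ± 1.06 (SD, n = 2), a difference of −0.199 percentage points (exact permutation test over samples, two-sided p = 0.667). With 2 samples against 2 this test cannot give a p below 0.333, so it cannot show a difference at 0.05, and nothing in the labels says that the samples came from separate cultures. Of those summits at gene starts or ends, 93.3% to 94.5% were present in each of the 4 samples. Of the distal ones, 52.4% and 57.3% were present with 4OHT and 55.7% and 48.7% without.

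The genes behind the members were assigned through starts within 1 kb. A member was found for 1747 of 21627 protein-coding genes (8.08%), or 14.4% of the 12169 that had any uninduced MEF summit at a start. A start summit shared with the 16 lists other than day-7 knockdown was found for 5254 genes, 24.3% of all and 43.2% of those with a summit. These 4 shares are the background for every gene list. In 16 gene lists of general cell functions, 632 of 647 genes had an uninduced MEF summit at a start, 325 had one shared with the 16 lists (51.4% of those with a summit) and 85 had a member (13.4%, close to the 14.4% of all genes with a summit). In 9 gene lists of single lineages, 50 of 152 genes had a summit, 5 had one shared with the 16 lists and none had a member. Among genes with an open start in uninduced MEF, genes of general functions therefore had members about as often as genes at large.

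**Figure D3:**
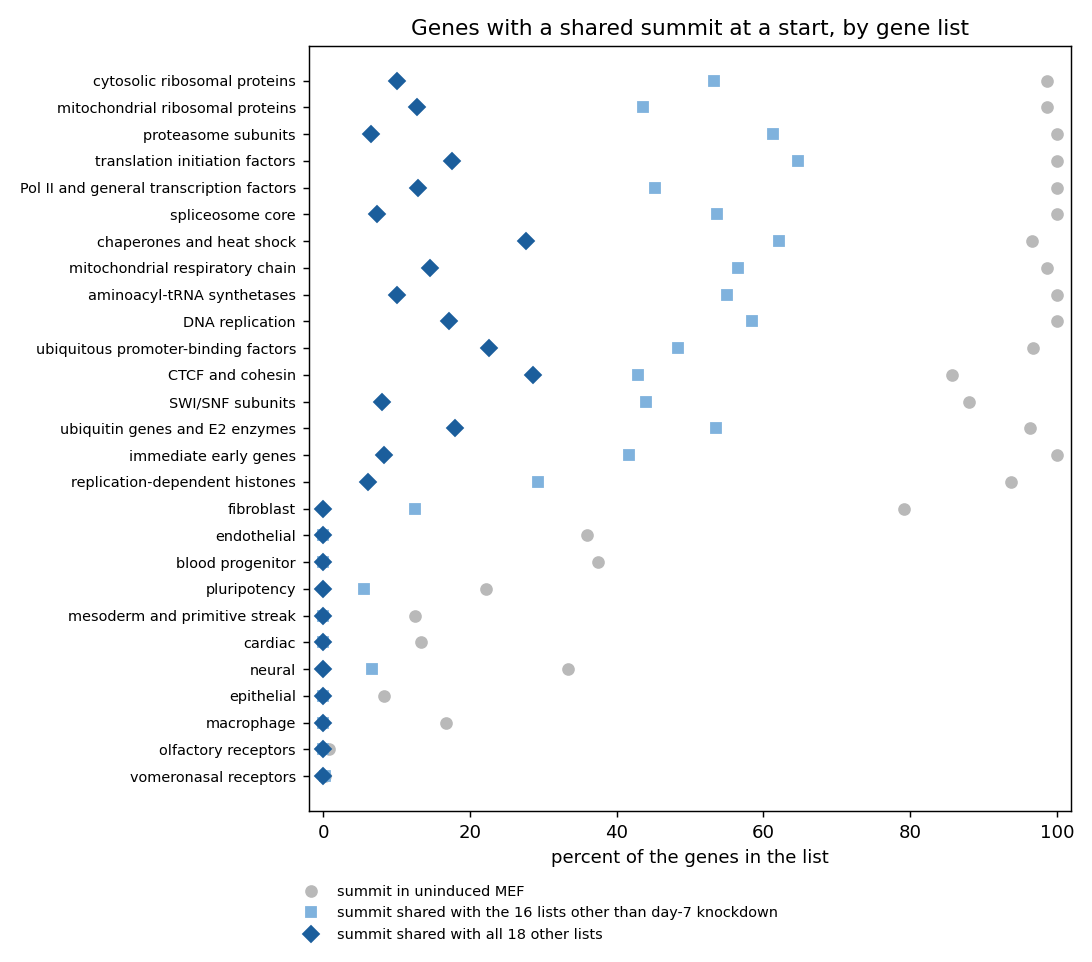
For each gene list, the percent of its genes with a summit at a start in uninduced MEF (circles), with one shared with the 16 lists other than day-7 knockdown (squares) and with a member (diamonds). The upper 16 lists have circles at 85.7% or more and diamonds from 6.15% to 28.6%, and the diamonds of the lower 11 lists are all at 0.

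Protein synthesis was represented through ribosome and initiation genes. Of 79 cytosolic ribosomal protein genes, 78 had a start summit in uninduced MEF, 42 had one shared with the 16 lists and 8 had a member (10.1%). Rpl37 had one of the most even ranks, with percentiles from 81.9 to 99.1 over the 19 lists (median 97.0) and a summit 139 bp upstream of the start (chr15:5116474). Rpl37a ranged from 3.17 to 91.1 (median 75.4), and its values in the day-7 knockdown lists were 10.2 with doxycycline and 3.17 without. Rpl15, Rpl30, Rpl34 and Rps29 also had one. Of 78 mitochondrial ribosomal protein genes 10 had a member, among them Mrpl17, Mrpl18, Mrpl19, Mrpl47, Mrpl50 and Mrpl51. Mrpl17 had percentiles of 34.4 to 99.6 (median 96.1). Of 34 translation initiation factor genes 6 had one, namely Eif2s1, Eif3e, Eif4a1, Eif5, Eif5a and Eif5b. Eif4a1, the helicase that unwinds mRNA leaders, had one of the tighter positions, with matched summits within 92 bp in all 19 lists. Of 20 aminoacyl-tRNA synthetase genes, which load amino acids onto tRNAs, Lars and Tars had a member.

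Among protein folding and turnover genes, the share with a member was highest for chaperones among 3 lists, a difference that was not tested. Of 29 chaperone and heat shock genes 8 had one (27.6%), at 7 summits because Hspd1 and Hspe1 share theirs. Hsp90b1, the HSP90 of the endoplasmic reticulum, had percentiles of 67.2 to 99.3 (median 97.5), and Hspa5 of 33.9 to 96.7 (median 91.3), in both cases lowest in a day-7 knockdown list. Dnajb1, a co-chaperone of HSP70, ranged from 45.7 to 98.6 (median 95.9). Hspa4, Hsph1 and Tcp1 completed the group, whereas Cct2, Cct3, Cct4 and Cct5, of the same chaperonin as Tcp1, had no member. Of 31 proteasome subunit genes all had a start summit in uninduced MEF, 19 had one shared with the 16 lists, and Psma7 and Psmd7 had a member (6.45%). Chromosomes 6, 8, 15 and 17, on which members were more frequent, hold 27.6% of the chaperone genes and 6.45% of the proteasome genes. On the other chromosomes 6 of 21 chaperone genes and 1 of 29 proteasome genes had a member. Of 28 genes of ubiquitin, E2 enzymes and other parts of the ubiquitin pathway 5 had a member, namely Cul3, Rbx1, Ube2g1, Ube2m and Ube2n.

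Genes of the respiratory chain, DNA replication and transcription machinery were similar to all genes with a start summit, and spliceosome and histone genes had lower shares. Of 76 respiratory chain genes 11 had a member (14.5%), among them Atp5g1, Atp5j, Atp5pb, Ndufa4, Ndufa5 and Ndufa6. Ndufa5, a subunit of complex I, had matched summits within 67 bp in all lists. Of 41 replication genes 7 had one (17.1%): Gins2 and Gins4 of the replicative helicase, Mcm3, Orc6 of the origin recognition complex, Lig1, Pcna, the sliding clamp, and Rpa3, which binds single-stranded DNA. Pcna had percentiles from 4.15 to 98.6 (median 94.6) and Gins2 from 63.3 to 99.6 (median 97.8). Of 31 genes of RNA polymerase II and general factors, Ccnh, Gtf2e2, Gtf2f1 and Polr2h had a member, and of 41 spliceosome genes Snrpd2, Srsf1 and Srsf7. Of 65 replication-dependent histone genes 4 had one, H2ac22, H2ac6, H2bc22 and H2bc4. Among genes with a start summit, 7.32% of the spliceosome list and 6.56% of the histone list had a member, against 14.4% of all. These differences were not tested. The histone genes H2ac22 and H2bc22 share a single summit between them. The summits of H2ac6 and H2bc4 lay within 250 bp of each other and so join into a single region.

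Regulators of chromatin and promoters were among the members as well. Of 31 genes of broadly expressed promoter-binding factors that could be matched, 7 had a member (22.6%). They included Nfya and Nfyb, subunits of NF-Y, Sp1, Gabpa, Elk4, and Cxxc1 and Kmt2b, which act at unmethylated CpG-rich promoters. Nfya had percentiles of 80.6 to 99.4 (median 96.4), and Nfyb ranged from 6.67 to 99.0 (median 88.8). Of 14 genes of CTCF and cohesin 4 had a member, Mau2, Smc3, Stag1 and Wapl, and Ctcf had none. Of 25 SWI/SNF subunit genes Actl6a and Smarca2 had one. Smarca2 encodes Brm, the alternative ATPase to Brg1, and its summit had percentiles of 31.1 to 99.0 (median 77.5), lowest in a floxed 4OHT list. Smarca4, the gene of Brg1 itself, had a start summit in 17 of 19 lists and lacked it in both day-7 knockdown lists. This says nothing of Brg1 protein or of the efficiency of the knockdown. Of 24 immediate early genes Klf2 and Klf10 had a member.

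Genes of single lineages had no member. Fibroblast genes had a start summit in uninduced MEF in 19 of 24 cases, and 3 of these, Col5a1, Fn1 and Snai2, were shared with the 16 lists. Of 25 endothelial genes 9 had a summit, of 16 blood progenitor genes 6 and of 18 pluripotency genes 4, and of these only the pluripotency gene Klf5 was in the 16 lists. Map2 was the neural gene that was. Fn1 and Klf5 had a start summit in all 19 lists, but no uninduced MEF summit of theirs had a partner within 250 bp in each, so they are not members. Fn1, Snai2 and Klf5 were named after their values were seen. Among 1106 olfactory receptor genes 8 had a summit, and among 353 vomeronasal receptor genes 1. Kdr, the gene of Flk1, had a start summit in 11 of 19 lists and Etv2 in 2. Gapdh, a frequent reference gene, had one in 18, lacking it in the day-7 knockdown list without doxycycline, so it is no member. Actb had one in 5 lists and none in uninduced MEF, counted at either end of its gene interval because the promoter table holds no start for it.

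Markers of pluripotent and early mesodermal cells and of epithelium separated uninduced MEF from uninduced EB, and markers of other cell types differed by at most 1 gene. Of 9 fibroblast markers 7 had a start summit in uninduced MEF and 6 in uninduced EB. Of 7 markers of pluripotent and early mesodermal cells none had one in uninduced MEF and all had one in uninduced EB. Endothelial markers had one in 2 of 6 and 3 of 6, blood markers in 2 of 5 and 3 of 5, and macrophage markers in 1 of 3 in both. Of 3 epithelial markers none had one in MEF and all had one in EB. RNA was not measured.

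Among non-coding genes, 253 of 12697 long non-coding RNA genes (1.99%) had a member within 1 kb of either end, against 7.82% of protein-coding genes counted in the same way. Fewer long non-coding genes had any uninduced MEF summit there: 2970 (23.4%), against 11822 (54.7%) of the protein-coding genes. Of 408 tRNA genes 265 (65.0%) had an uninduced MEF summit there but only 3 (0.735%) had a member. Of 1228 microRNA genes 164 (13.4%) had a summit there and 10 (0.814%) had a member, Mir320 among them. Of 63 ribosomal RNA genes 49 (77.8%) had a summit and none had a member.

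The best-ranked members were picked separately at starts and among distal members, and the 10 distal ones had the higher mean percentiles, from 98.4 to 99.6. At starts, the 10 with the highest mean percentile had means from 97.0 (Rab8a, a small GTPase of vesicle transport) to 98.4 (Hjurp). The summit of Hjurp (chr1:88277588) had percentiles of 88.4 to 99.8 (median 99.6) and that of Evi5l (chr8:4166229) of 88.8 to 99.7 (median 99.3). The pair 4930579G24Rik and Etfdh (chr3:79628930) had percentiles of 88.4 to 99.6, and its matched summits lay within 86 bp of each other in all lists. Ppp2r1a, the scaffold subunit of protein phosphatase PP2A, Osbp, an oxysterol-binding protein, Mon1b, Gm51425, 1700030J22Rik and the pair Kbtbd3 and Aasdhppt completed the 10. In all of these the lowest rank was in a day-7 knockdown list.

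Of the 10 best-ranked distal members, 7 ranked above the 97th percentile in every list. The 1 at chr11:109011880, inside Gm36876 and 22903 bp from its nearest gene end, had a score of 614 in uninduced MEF and percentiles from 98.5 to 99.9 over the 19 lists. The summits at chr15:75086782 and at chr2:5379324, the latter inside Camk1d, had the same range, and the latter's matched positions spanned 31 bp. The member at chr1:195241712 had the narrowest positions of all, 30 bp, and percentiles of 97.8 to 99.9. Others lay at chr13:44869668 inside Jarid2, at chr9:56223842 inside Peak1, and at chr6:3201455. The remaining 3 were less even, with lowest percentiles of 95.1 at chr18:3005843, 90.9 at chr8:20122286 and 85.3 at chrX:169998135, the last below the lowest value of Hjurp or Evi5l. No member at a start ranked above the 90th percentile in every list, whereas 12 of 170 distal members (7.06%) and 2 at gene ends did. Of the 38 summits in the bins set aside, whose high ranks follow from the rule, 37 were distal. Whether the 12 distal members are mapping artefacts was not tested.

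The rule bounds how far matched summits can lie apart, and within that bound they varied. Over the 19 lists a member's summits spanned a median of 222 bp (quartiles 168 and 277), from 30 to 483 bp. Spans were alike at starts (220 bp) and in distal members (238 bp). The widest at a gene were 479 bp at 2810454H06Rik and Gpr19, 472 bp at Shoc2 and Bbip1, and 462 bp at Cep55. The narrowest at starts were 48 bp at Gm15983 and 56 bp at Serp1, which encodes a stress protein of the endoplasmic reticulum. The median offset from the uninduced MEF summit was 24 to 35 bp in most lists, 53 and 51 bp in the day-7 knockdown lists and 60 to 64 bp in the floxed lists, whose files hold 1 summit per peak. Single genes seldom had more than 1 region: 13 had 2, and the first 5 by name were Cramp1l, Gm33989, Ing1, Klf10 and Lig4.

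Members were unevenly spread over chromosomes. Chromosome 8 held 192, chromosome 6 held 174, chromosome 17 held 148 and chromosome 15 held 111, together 625 members (36.1%), although these 4 chromosomes held 22.4% of uninduced MEF summits and 22.6% of the 5248 summits in the 16 lists. The difference arose in the day-7 knockdown lists. On the 4 chromosomes, which were picked after their values were seen, 52.8% of the 5248 were in both of these lists, and on the other 16 chromosomes 27.3%. By chromosome the share was 56.1% on chromosome 8 (50.7 to 61.5), 54.7% on chromosome 6, 50.5% on chromosome 15 and 48.7% on chromosome 17. It was 19.2% on chromosome 4 (14.7 to 24.5), 18.6% on chromosome 9 and 15.1% on X (8.48 to 24.0). Within the low, middle and high part of the uninduced MEF score it was 19.7%, 45.3% and 77.5% on the 4 chromosomes against 8.61%, 21.2% and 56.0% on the others.

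**Figure D4:**
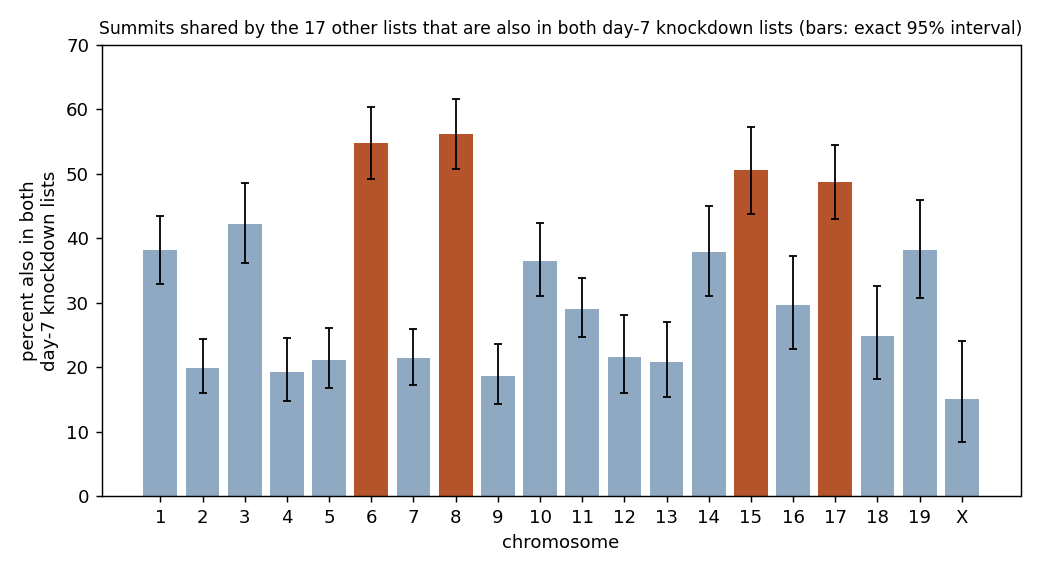
Percent of the summits shared by all lists other than day-7 knockdown that were also in both day-7 knockdown lists, for each chromosome, with exact 95% intervals. Chromosomes 6, 8, 15 and 17, in brown, stand at 48.7% to 56.1%, and the X chromosome is lowest at 15.1%.

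Both day-7 knockdown lists had this pattern: over the 20 chromosomes their shares had a Spearman correlation of 0.953, given as a description of lists that share the base set of summits. On chromosome 8 the list with doxycycline held 71.9% and the list without 65.2%, on chromosome 9 32.8% and 28.3%. Among the 16 other lists, unsorted MEF at day 7 of doxycycline held 85.5% of the summits of the rest on the 4 chromosomes and 80.5% on the others, with 54.7% on X, and in each of the other 15 both values lay between 96.8% and 99.9%. The share of a list's summits that fell on a chromosome was divided by that in uninduced EB. The ratio was 1.58 with doxycycline and 1.67 without for chromosome 8, and 1.10 in uninduced MEF. For chromosome 15 it was 1.42, 1.40 and 1.23. The X chromosome, where members were fewest, had ratios of 1.73, 1.57 and 0.815. In the knockdown lists of days 0 to 2 the ratio was 1.23 to 1.36 for chromosome 8 and 1.3 to 1.6 for chromosome 15. It was 0.859 to 0.943 there for X. In the floxed lists it was 1.21 to 1.34 for chromosome 8, 0.945 to 1.03 for chromosome 15 and 0.922 to 1.12 for X. The high ratios of chromosomes 8 and 15 were thus not particular to day 7. Across chromosomes the share in both day-7 knockdown lists had a Spearman correlation of 0.713 with the ratio of uninduced MEF to uninduced EB, again a description. The part of these ratios in the result was not tested, and copy number was not measured. At the level of genes, 26.2% of protein-coding genes with a start summit on the 4 chromosomes had a member and 11.5% elsewhere. The part of chromosome in the counts of single gene lists was not tested. Of the cytosolic ribosomal protein genes, 17.7% lie on the 4 chromosomes.

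Sequence was compared at protein-coding promoters, counting a promoter under a class when its start had an uninduced MEF summit within 250 bp. The 1413 promoters with a member had a median GC content of 63.0%, 24 CpG dinucleotides and an observed to expected CpG ratio of 0.837. The 3378 whose summit was shared with 16 or 17 lists had 63.0%, 24 and 0.832. With 9 to 15 lists the ratio was 0.767, with 1 to 8 it was 0.637, and in the 36 promoters whose summit no other list shared it was 0.298. The 11177 promoters without a summit had a GC content of 50.7% and a ratio of 0.265. CpG content was thus higher the more lists shared a summit, with near-equal medians in members and in summits lacking 1 or 2 lists.

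The motif with the largest excess in members over promoters lacking 1 or 2 lists was that of NF-Y, searched as its CCAAT-containing consensus. It was in 175 of 1413 member promoters (12.4%, interval 10.7 to 14.2), 9.03% (8.08 to 10.0) of promoters shared with 16 or 17 lists, 5.32% with 9 to 15, 2.66% with 1 to 8 and 2.67% without a summit. It was in 4.85% of all 21019 promoters. ZNF143 (ACTACAANT) was in 4.53% (3.51 to 5.75) of member promoters and in 3.76% (3.14 to 4.46), 2.77% and 1.13% of the next 3 classes. The first 2 intervals overlap. The motif was in 0.922% of promoters without a summit and 1.98% of all. Among promoters of 60% to 70% GC, NF-Y was in 10.9% of member promoters, 7.11% of those with another summit and 4.27% without one, and ZNF143 in 4.17%, 2.31% and 0.574%. A match is a stretch of letters and not a measured binding site.

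**Figure D5:**
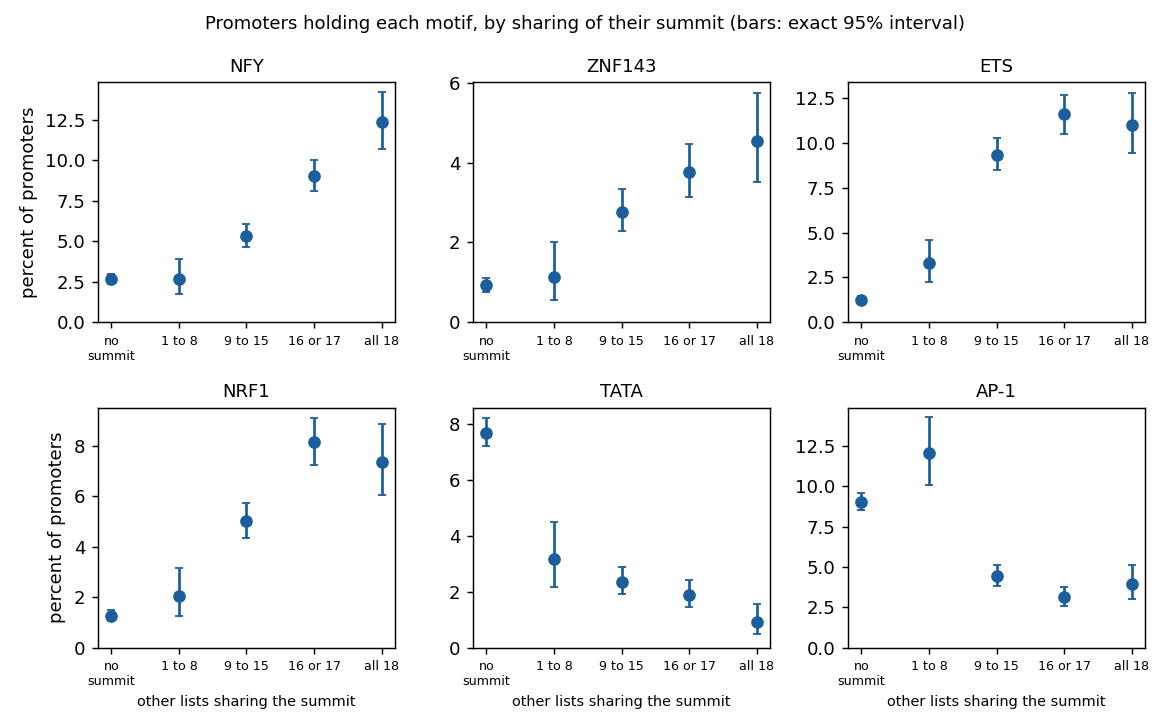
Percent of protein-coding promoters holding an exact match to each of 6 motifs, by the number of other lists sharing the promoter's summit, with exact 95% intervals. Each panel has its own vertical axis from 0, and the class of 36 promoters shared with no other list is left out. NF-Y reaches 12.4% in members, and TATA is at 0.92% in members.

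Other motifs of broadly active promoters were about as common in members as in promoters lacking 1 or 2 lists, except that SP/KLF was slightly more common in members. ETS (CCGGAAGT) was in 11% of member promoters and 11.6% of promoters with 16 or 17 lists, against 1.22% without a summit and 5.2% of all. NRF1 (GCATGCGC) was in 7.36% and 8.14%, against 1.26% and 3.54%. The SP/KLF box (GGGGCGGGG) was in 27.3% (25.0 to 29.7) and 24.9% (23.4 to 26.4), against 7.79% without a summit and 15.5% of all. YY1 (AAGATGGCG) was in 3.61% and 3.82% of the same 2 classes, against 1.84% of all. The cAMP response element (TGACGTCA) was in 4.03% and 4.41%, against 2.26%, and the E-box (CACGTGAC) in 5.31% and 5.21%, against 2.86%. Matches of different motifs can overlap, and each was counted for its own motif.

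Other motifs searched were mostly less frequent in member promoters than in all promoters. The TATA box, spelled TATAAAA, was in 0.92% (0.491 to 1.57) of member promoters, 1.89% with 16 or 17 lists, 7.69% without a summit and 5.07% of all. AP-1 (TGANTCA) was in 3.96%, against 12.1% of promoters shared with 1 to 8 lists and 7.04% of all. Among promoters of 60% to 70% GC, TATA was in 0.538% of member promoters (4 of 743), 1.42% of those with another summit and 1.28% without one. There AP-1 did not follow the same order, with 4.17%, 3.41% and 5.23%. GATA (AGATAAGA) was in 0.212% against 0.875% of all. At 60% to 70% GC it was in 3 of 743 member promoters (0.404%), 11 of 3459 with another summit (0.318%) and 4 of 1568 without one (0.255%). Counts this small do not order the classes. Over all GC contents, TEAD (ACATTCCA) was in 0.354% against 1.17%, OCT (ATGCAAAT) in 1.27% against 1.68%, and the start motif CTCTTTCC in 2.76% against 3.05%. CTCF was in 0.708% against 0.566%, and its looser form in 14.4% against 9.97%. Of the member promoters, 41.7% held none of the 8 motifs marked in the printed promoters and 14.5% held 2 or more, against 50.9% and 10.1% of promoters with another summit and 68.4% and 5.72% of all. Distal members were not read, because no genome sequence was used here.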

How the data were processed

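ATAC-seq was measured in 34 mouse samples of 17 groups, with 2 samples each. The submitters' processing notes name Bowtie2 2.2.4, MACS2, HOMER and the mm10 build, without saying what each did. Trimming, duplicate handling, the shift for transposase cutting, a blacklist and the pooling of replicates are not given in the sources used here. The authors deposited summit lists whose score, per the file layout, is −log10 of a q value, with 1.3 (a q value of 0.05) as the lowest. Both samples of a pooled group share 1 list. Sequencing depth was not analysed, and list length, 11188 to 85498 summits, was the stand-in.

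Matching used the summit base and 250 bp. Gene ends came from a RefSeq gene table and starts from a RefSeq promoter table, both of GRCm38.p6, within 1 kb. Motifs were matched as exact letters on both strands. Shares carry exact Clopper-Pearson 95% intervals, and only the floxed lists allowed an exact permutation test. Scripts ran in Python 3.11.15 (scipy 1.17.1, pandas 2.3.3, numpy 2.4.6, with matplotlib 3.10.9 for plots), and the matching was tested on simulated data. Alternatives changed the matching distance, the bins set aside, a score minimum of 5, the anchor list, the joining of members, the gene distance and the lists required.

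The members, gene lists and motifs were chosen with earlier results of these data known. Named genes are, per gene list, up to 6 with a member and 4 without in alphabetical order, the 10 gene-start and 10 distal members of highest mean percentile, the 5 narrowest and 5 widest, the 5 genes with most members, the 10 best-ranked summits lacking 1 list, and Etv2, Kdr, Smarca4, Gapdh and Actb. Further members of a gene list and of the divergent pairs were named after their values were seen, to complete a count. Some genes that the rule covers are not reported here. Signal tracks were not used.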

Additional observations from a re-analysis of the deposited data

How the results depend on the processing

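The number of members depended on how strict the rule was. It was 337 with matching within 100 bp, 2732 within 500 bp, 587 when summits needed a score of at least 5, and 5248 without the 2 day-7 knockdown lists. It lay between 1710 and 1782 in the other 8 alternatives, and leaving out 1 floxed sample gave 1766 to 1782. The share at gene starts or ends, 90.2%, ranged from 85.0% to 93.3% over its 14 alternatives. It was 85.0% within 500 bp, 88.3% with no bins set aside, 87.6% with the score minimum, 93.3% without the day-7 knockdown lists, 88.3% with a gene distance of 500 bp and 91.8% with 2 kb. The distal share was 15%, 11.7%, 12.4%, 6.65%, 11.7% and 8.19% in the same order. The share found in the day-7 knockdown list with doxycycline was 73.1% within 100 bp, 77.5% within 500 bp, 66.7% with the score minimum and 50.1% where neither day-7 list was required. Without doxycycline it was 59.6%, 69.7%, 51.1% and 43.7%. The median over the other lists stayed between 97.5% and 99.8%. Both day-7 knockdown lists lay below that median in all 12 alternatives. With a score minimum, a fixed value takes a different share of each list. The causes of the other shifts were not tested.

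No paired analysis was possible because the pooled lists hold no replicates and the floxed comparison rests on 2 samples a group whose numbers nothing ties together. Without replicates, no pooled share has an error beyond counting. Depth was not analysed, so a summit absent from a short list was not detected there, and whether the region was closed was not tested.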
